A study of Mus musculus with 8 samples.

Results

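The 10 genes described here encode proteins that damp MAP kinase signalling: the dual-specificity phosphatase genes Dusp1, Dusp2, Dusp4, Dusp5, Dusp6 and Dusp10, and the Sprouty and SPRED genes Spry1, Spry2, Spred1 and Spred2. They were taken by symbol from a table of 25230 gene symbols, where all 10 were found, and all 10 passed the filter on low counts that kept 14691 genes. The libraries came from gut intraepithelial lymphocytes (IELs), lymphocytes lodged in the epithelium of the gut, of 8 C57BL/6J mice. Every mouse, controls included, was injected with 35 µg of an antibody against CD3, which triggers T cells through their receptor complex. With it, 4 mice were given PBS and 4 were given 10 nmol/kg of exendin-4 (Ex4), a peptide that activates the GLP-1 receptor, and IELs were collected 3 hours later on Percoll and by sorting for CD45. No group without anti-CD3 is analysed here, so the values show these genes in activated cells and not how far activation moved them, and a sort on CD45 admits any leukocyte of the gut.

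T cell receptor stimulation activates RAS and then the kinases RAF, MEK and ERK, and in parallel the kinases p38 and JNK. The kinases switch on genes for their own inhibitors. DUSP proteins remove phosphate from both the threonine and the tyrosine of the activation loop of MAP kinases, whereas Sprouty and SPRED proteins act upstream, on RAS and RAF. The GLP-1 receptor raises cyclic AMP, whose kinase activates the transcription factor CREB, and several feedback genes are known targets of CREB or of serum response factor, which lies downstream of ERK.

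The letters that these 2 factors recognise were therefore looked for in the 250 bases before the transcription start, in RefSeq sequences of build GRCm38.p6 that were held for 9 of the 10 genes (all except Dusp4). The full cyclic AMP response element, TGACGTCA, was present in 1 of the 9, Dusp1, and in 1.55% of 32851 promoters. The shorter core of that element, TGACG, read on both strands and also contained in the full element, was present in Dusp1, Dusp5 and Spred2 and in 17.8% of all promoters. The CArG box of serum response factor was present in Dusp5, as 2 adjoining copies, and in 1.47% of all promoters. The stretches below carry these matches, in capitals, with 30 bases on either side, each read 5′ to 3′ along its gene. They are shown because they mark the members whose promoters hold the letters of the pathway under test.
Dusp1, chr17:26508578-26508693, minus strand: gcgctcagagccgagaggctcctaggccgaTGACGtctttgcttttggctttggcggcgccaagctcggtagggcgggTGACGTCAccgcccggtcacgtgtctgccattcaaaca
Dusp5, chr19:53529033-53529124, plus strand: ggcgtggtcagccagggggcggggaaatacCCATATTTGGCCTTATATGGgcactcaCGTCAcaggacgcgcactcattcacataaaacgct
Spred2, chr11:19924361-19924425, plus strand: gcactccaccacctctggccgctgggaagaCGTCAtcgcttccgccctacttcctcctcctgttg

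In Dusp1 the full element ends 136 bases before the start and a further core ends 187 bases before it. In Dusp5 the CArG boxes run together from 82 to 63 bases before the start, with the core ending 51 bases before it. The core in Spred2 ends 47 bases before its start. These starts are those of RefSeq. GENCODE starts Spred2 at base 19924375 and Dusp1, on the minus strand, at base 26562128. The matches of Spred2 and Dusp1 thus lie inside the GENCODE genes. Letters of EGR factors (GCGGGGGCG or GCGTGGGCG) were present in Dusp2 and in 3.06% of all promoters. The AP-1 letters TGAGTCA or TGACTCA (4.46% of promoters) and the ETS letters CCGGAAG (6.91%) were in none of the 9 windows, which says only that these letters are not in these bases. A match is a string of letters and binding was not measured.

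Total counts ran from 18266449 to 25333644 in the PBS libraries and from 13386889 to 31843413 in the Ex4 libraries. Levels below are in CPM, the counts of a gene scaled to a common library size with TMM factors, and values after ± are SDs over 4 libraries unless an SE is named. The summed level of 13 T cell and IEL markers ran from 53034 to 79766 CPM in PBS libraries and from 70089 to 84117 CPM in Ex4 libraries, and none of the 13 was at 0 in any library. Epithelial markers, 18 of 18 measured, summed to 689 to 1554 CPM in PBS libraries and 355 to 814 CPM in Ex4 libraries, with Olfm4 at 0 in at least 1 library. PBS 1 had the lowest T cell and IEL sum, 53034 CPM, and the highest mast cell sum, 204 CPM from 6 markers against at most 80.1 CPM in the other libraries (Fcer1a and Ms4a2 were at 0 in at least 1 library). Its macrophage, monocyte and dendritic cell sum was also the highest, 254 CPM from 12 markers, of which none was at 0. B and plasma cell markers, 7 of 8 measured, summed to 844 to 1461 CPM in PBS libraries and 256 to 2201 CPM in Ex4 libraries, highest in Ex4 3, with none at 0.

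Of the 10 feedback genes 0 passed the test of exendin-4 against PBS in either direction (edgeR quasi-likelihood test, Benjamini-Hochberg over all genes, adjusted p from 0.528 to 0.962). Over all 14691 genes the same test called 0.0136%. At an unadjusted p under 0.05 edgeR had 1 of the 10, Dusp10, where 7.61% of all genes lay under that value. DESeq2 and limma-voom each had 2 of the 10 under it. The share of all genes under it with those tools is not given here. After adjustment DESeq2 and limma-voom also called 0 of the 10, although DESeq2 set no adjusted p for 2 of them, Spry1 and Spred2. In 0 of the 10 did the PBS and Ex4 libraries stand apart without overlap, against 4.95% of all genes. Fold changes of the members had a median of -0.15 on the log2 scale, with 6 below 0 and 4 above. Over all genes tested the median was 0.02, and 47.1% were below 0. The bulk values cannot tell fewer cells of a type from less RNA per cell.

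**Figure D1:**
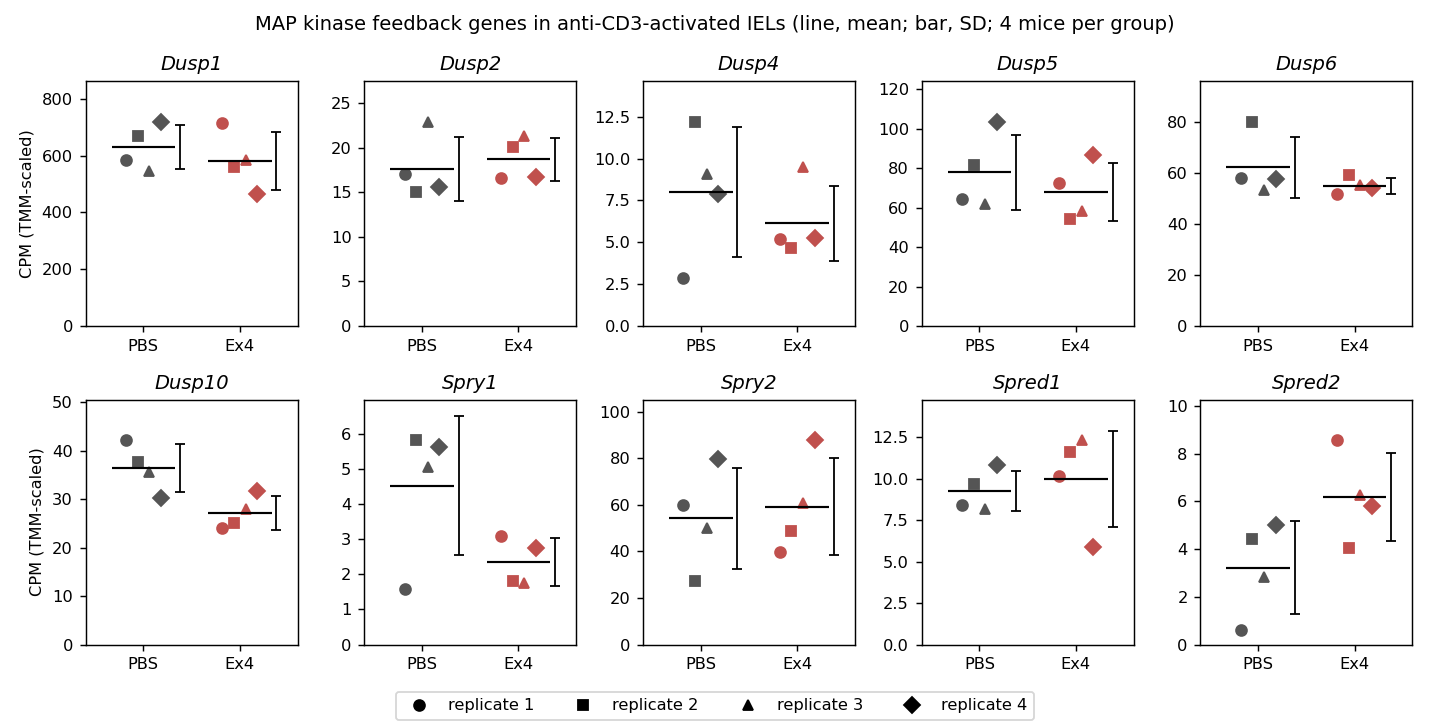
CPM of each gene (vertical axes, each from 0) in 4 PBS and 4 Ex4 libraries, 1 point per mouse with its shape giving the replicate number. Lines are means and bars SDs. The groups overlap in every panel, least for Dusp10, and the point of PBS 1 lies lowest for Dusp4, Spry1 and Spred2.

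The phosphatases that act in the nucleus and are induced early were led by Dusp1, which encodes MKP-1, a phosphatase of p38, JNK and ERK. Dusp1 (chromosome 17, 26505591 to 26508472, coordinates here and below being the RefSeq gene in GRCm38) was at 584.9, 669.7, 546.3 and 719.2 CPM in PBS 1 to 4. In Ex4 1 to 4 it was at 714.3, 559.8, 584.6 and 466.6 CPM. Ex4 1 was nearly as high as the highest PBS library and Ex4 4 the lowest of all, so the groups overlapped over most of their range. Its log2 fold change was -0.12 (SE 0.15), with a 95% interval of the fold from 0.736 to 1.16 (edgeR adjusted p = 0.922). The log2 value was -0.24 when Ex4 1 was left out, -0.04 when Ex4 4 was left out, and -0.30 with the epithelial marker level as a covariate.

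Dusp5 (chromosome 19, 53529145 to 53541809) encodes a nuclear phosphatase specific for ERK. It was at 64.6, 81.7, 62.1 and 103.6 CPM with PBS and at 72.6, 54.3, 58.4 and 86.8 CPM with Ex4. The replicates numbered 4 were the highest in both groups, and the groups overlapped. The log2 fold change was -0.20 (SE 0.19) with a 95% interval of the fold from 0.661 to 1.15 (edgeR adjusted p = 0.863). It was -0.05 on the log2 scale without PBS 4 and -0.35 without Ex4 4.

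Dusp2 (chromosome 2, 127336159 to 127338377) encodes PAC1, a nuclear phosphatase of activated lymphocytes. Its values were 17.0, 15.0, 22.9 and 15.5 CPM with PBS and 16.6, 20.1, 21.3 and 16.7 CPM with Ex4, all 4 Ex4 values lying within the range of the PBS values. The log2 fold change was 0.09 (SE 0.20), with an interval of the fold from 0.794 to 1.42. Dusp4 (chromosome 8, 34807610 to 34819894) encodes MKP-2, the close relative of MKP-1, and was low. It was at 2.89, 12.2, 9.08 and 7.88 CPM in PBS 1 to 4 and at 5.18, 4.67, 9.49 and 5.24 CPM in Ex4 1 to 4. PBS 1 was the lowest library and Ex4 3 stood above the other Ex4 libraries, at the level of PBS 3. The log2 fold change of -0.38 (SE 0.40) had a wide interval of the fold, from 0.427 to 1.38. It was -0.69 without Ex4 3 and -0.12 without PBS 2.

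The cytoplasmic phosphatase of ERK is encoded by Dusp6 (chromosome 10, 99263231 to 99267489), whose transcript is widely read as a gauge of ERK activity. Dusp6 was at 58.1, 80.2, 53.3 and 57.6 CPM with PBS and at 51.7, 59.2, 55.4 and 54.1 CPM with Ex4. Except for PBS 2 the libraries of both groups lay close together. The log2 fold change was -0.18 (SE 0.15), the 95% interval of the fold ran from 0.713 to 1.10 (edgeR adjusted p = 0.841), and without PBS 2 the log2 value was -0.05.

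Dusp10 (chromosome 1, 184034381 to 184075636) encodes MKP-5, which acts on p38 and JNK rather than on ERK. It was at 42.1, 37.7, 35.7 and 30.2 CPM in PBS 1 to 4 and at 24.0, 25.0, 28.0 and 31.6 CPM in Ex4 1 to 4. The groups crossed in 1 pair of libraries, Ex4 4 lying above PBS 4. Means were 36.4 ± 4.94 and 27.2 ± 3.43 CPM, with a log2 fold change of -0.43 (SE 0.16) and a 95% interval of the fold from 0.590 to 0.940. This was the smallest p of the members, 0.0165 unadjusted, and ranked 456 among 14691 genes (edgeR adjusted p = 0.528). In the 8 fits with 1 library left out the log2 value stayed between -0.53 and -0.36, and the adjusted p over all 19 alternatives ran from 0.252 to 0.877. The groups separated without PBS 4, as 8.17% of all genes did, and without Ex4 4, as 7.83% did.

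Of the adaptor-type inhibitors, Spry2 (chromosome 14, 105891947 to 105896819) was the abundant Sprouty. It was at 59.8, 27.2, 50.2 and 79.5 CPM with PBS and at 39.7, 48.9, 60.6 and 87.7 CPM with Ex4. Both groups spanned a broad range, with the lowest library (PBS 2) and the highest (Ex4 4) differing 3.23-fold. The log2 fold change was 0.13 (SE 0.32), with an interval of the fold from 0.665 to 1.80, and its sign turned to -0.11 without PBS 2 and to -0.13 without Ex4 4.

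Spry1 (chromosome 3, 37639947 to 37644599) was scarce, with 33 to 140 counts per library. It was at 1.59, 5.81, 5.06 and 5.63 CPM in PBS 1 to 4 and at 3.10, 1.81, 1.76 and 2.76 CPM in Ex4 1 to 4. PBS 2, 3 and 4 lay above all Ex4 libraries and PBS 1 lay below all of them. Means were 4.52 ± 1.98 and 2.36 ± 0.678 CPM, with a log2 fold change of -0.94 (SE 0.45) and an interval of the fold from 0.265 to 1.02 (edgeR adjusted p = 0.661). Without PBS 1 the log2 fold change was -1.24 and the groups did not overlap, as held for 7.22% of all genes without that library, and Spry1 still did not pass. PBS 1 was also the library with the lowest T cell and IEL marker sum given above, whose part in the value was not tested.

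SPRED proteins bring the RAS inhibitor neurofibromin to the membrane. Spred1 (chromosome 2, 117121071 to 117182279) was at 8.42, 9.67, 8.19 and 10.8 CPM with PBS and at 10.1, 11.6, 12.3 and 5.87 CPM with Ex4. Ex4 2 and 3 were above the PBS range, Ex4 1 was within it and Ex4 4 was below it. The log2 fold change was 0.11 (SE 0.27), with an interval of the fold from 0.726 to 1.61.

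Spred2 (chromosome 11, 19924442 to 20024026) had the largest positive value. It was at 0.626, 4.44, 2.83 and 5.01 CPM in PBS 1 to 4 and at 8.55, 4.06, 6.28 and 5.80 CPM in Ex4 1 to 4. Ex4 2 lay among the PBS libraries and the other Ex4 libraries lay above all of them. PBS 1 held 13 counts, with an exact 95% Poisson interval from 6.92 to 22.2 that covers counting error only, against 57 to 107 counts in the other PBS libraries. Means were 3.23 ± 1.96 and 6.17 ± 1.85 CPM, with a log2 fold change of 0.94 (SE 0.50) and an interval of the fold from 0.912 to 4.01 (edgeR adjusted p = 0.689). Without PBS 1 the value was 0.58, and without Ex4 2 the groups separated, as 8.99% of all genes did.

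**Figure D2:**
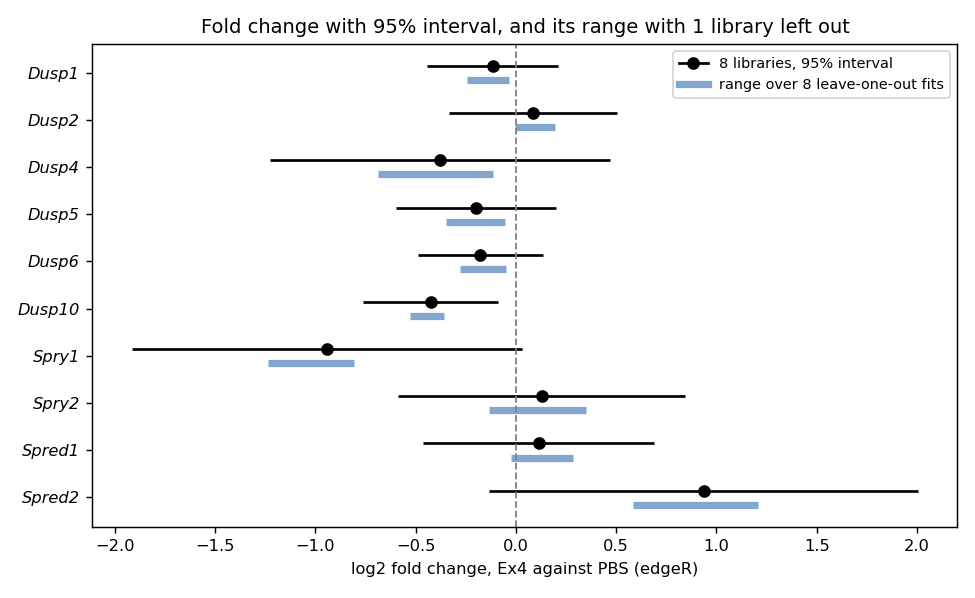
Log2 fold change of Ex4 against PBS (horizontal axis) for each gene, with its 95% interval in black and, in blue, the range of the value over the 8 fits that each leave out 1 library. The interval leaves out 0 only for Dusp10, from -0.76 to -0.09 before any adjustment for multiple tests, and the blue ranges of Dusp2, Spry2 and Spred1 reach across 0.

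The members covered a wide range of abundance. Per kilobase of exon, over all 8 libraries, Dusp1 was at 182.9 ± 26.7 CPM per kb (SD, n = 8), 6.20 times the mean of the next gene, and stood above it in 8 of 8 libraries. Dusp5 (29.5 ± 6.75 CPM per kb) and Spry2 (27.2 ± 9.53) followed and did not differ beyond their spread, Dusp5 being the higher in 4 of 8 libraries. Dusp6 (18.7 ± 2.89) was below Spry2 in 7 libraries and above Dusp10 (10.5 ± 2.08) in all 8. Dusp10 and Dusp2 (9.05 ± 1.45) changed places between libraries. Dusp4 came next at 2.58 ± 1.13 CPM per kb. Spred1 (1.42 ± 0.308), Spry1 (1.18 ± 0.617) and Spred2 (1.02 ± 0.512) were the lowest, and each was above the next in 4 of 8 libraries.

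**Figure D3:**
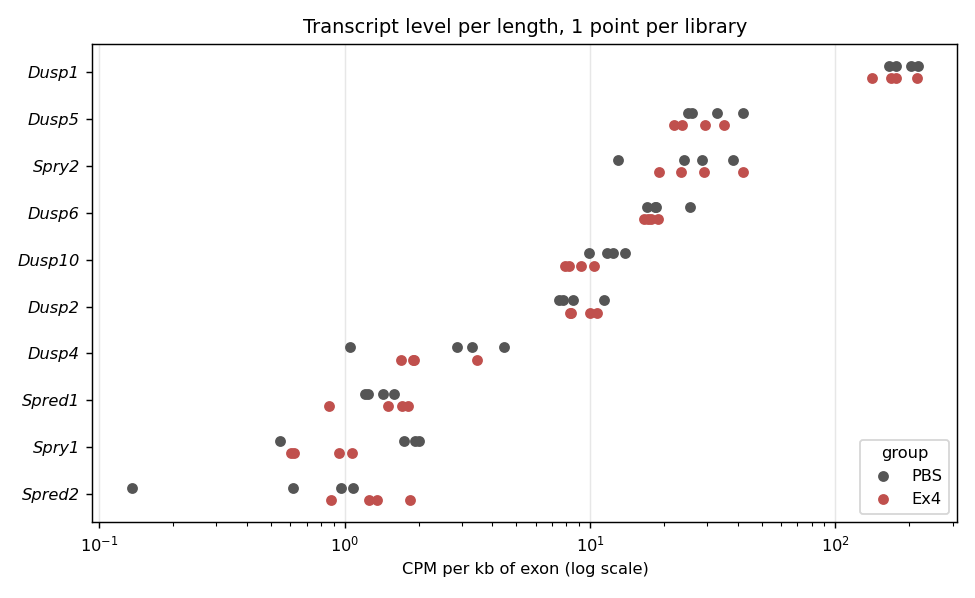
Level of each gene in CPM per kb of exon (horizontal log axis) in 8 libraries, PBS in grey and Ex4 in red, ordered by the mean. Dusp1 stands apart at 141 to 217 CPM per kb, and the PBS and Ex4 points of each gene share a range, with PBS 1 far to the left for Spred2 at 0.135.

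Dusp1 thus made up most of the summed per-length level of the 6 phosphatase genes, from 70.6% to 72.9% in the PBS libraries and from 65.9% to 77.1% in the Ex4 libraries. The share of Dusp10 was 5.66%, 4.35%, 5.02% and 3.33% in PBS 1 to 4 and 2.82%, 3.57%, 3.81% and 4.86% in Ex4 1 to 4, and the groups overlapped. Spry2 exceeded Spry1 per length in every library, by 6.51 to 52.4 times in PBS libraries and 17.8 to 47.9 times in Ex4 libraries. Spred1 and Spred2 were closer, at ratios of 1.47 to 9.17 in PBS libraries and 0.689 to 1.95 in Ex4 libraries, where PBS 1 held the 9.17.

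The library with the extreme value differed between members. PBS 1 was the lowest library for Dusp4, Spry1 and Spred2 and the highest for Dusp10. PBS 2 was the highest for Dusp4, Dusp6 and Spry1 and the lowest for Dusp2 and Spry2. Ex4 4, the shallowest library, was the lowest for Dusp1 and Spred1 and the highest for Spry2. The highest and lowest libraries differed 1.54-fold for Dusp1, 1.53-fold for Dusp2, 1.55-fold for Dusp6 and 1.75-fold for Dusp10, but 4.23-fold for Dusp4 and 13.7-fold for Spred2. The median SD within groups on the log2 scale was 0.34 for the members and 0.34 for all genes tested.

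**Figure D4:**
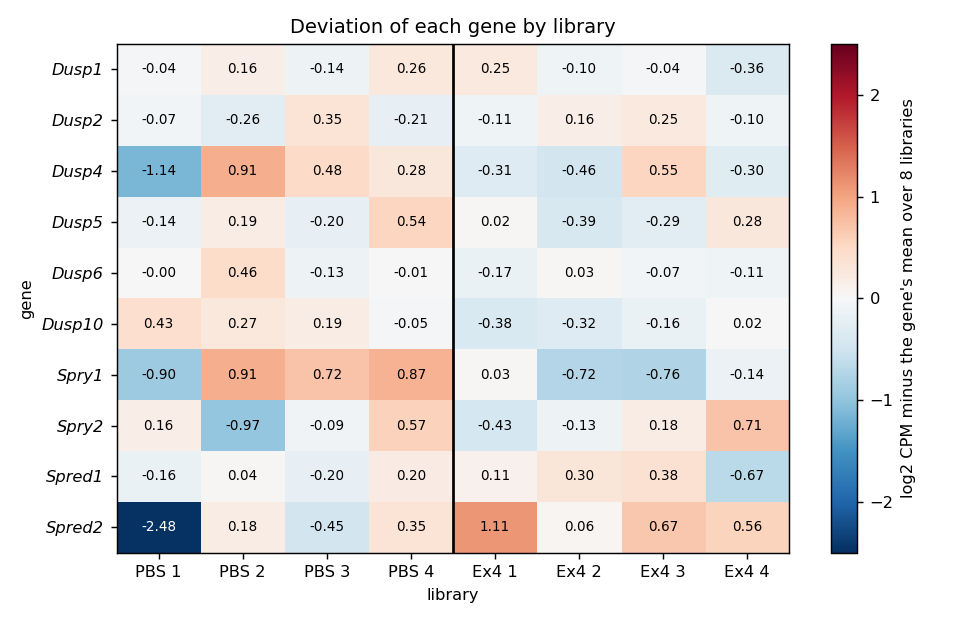
Log2 CPM of each gene in each library minus the mean of that gene over 8 libraries (colour and printed value), PBS left of the line and Ex4 right of it. Spred2 in PBS 1 (-2.48) and Dusp4 in PBS 1 (-1.14) are the lowest values, and Dusp1, Dusp2 and Dusp6 vary little.

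The genes whose log2 CPM followed each member most closely over the 8 libraries were named as a description, among at least 8665 genes compared. For Spry2 they were Luc7l2 (Pearson r 0.99) and Mib1 (0.96), and for Dusp6 Med27 (0.94) was among them. For Dusp10 they were Recql5 (0.98) and Dennd3 (0.96), for Dusp1 they included Chmp7 (0.96), and for Dusp5 they were Hic1 (0.96) and Ppm1m (0.95). Dusp2 was followed most closely by Zfp644 (0.93). Genes close to Dusp4 included Etv3 (0.95), and Spred1 was followed by Ubxn7 (0.95) and Mlx (0.94) and Spry1 by Ddx21 (0.91) and Scap (0.90). Spred2 was followed by Gak (0.995) and Ctla4 (0.994), and 224 genes exceeded 0.9 with it, against 1 to 27 for the other members. Spred2 in PBS 1 deviated by -2.48 from its mean log2 CPM. How far its r values rest on that library was not tested, nor whether those genes follow Spred2 in the others. All points share the same libraries and depths.

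The rest of the pathway gave 0 calls as well, where 0.0136% of all genes were called. Among 14 tested further members of the phosphatase and Sprouty families 0 passed, with a median log2 fold change of 0.14. Of these, 10 were above 0 and 4 below, beside 47.1% of all genes below. The smallest p-values were those of Dusp23 (1.88 ± 0.908 and 3.66 ± 0.728 CPM), Dusp22, a phosphatase of the T cell kinase LCK (30.2 ± 6.48 and 36.9 ± 4.68 CPM), and Spry4 (1.53 ± 1.10 and 3.21 ± 2.48 CPM).

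Of 25 genes of the ERK cascade, its activators pooled with RAS GTPase-activating proteins that oppose it, 0 passed, with a median of -0.03. An unadjusted p under 0.05 was found for 2 of these 25, for 2 of the 19 p38 and JNK genes below, for 2 of the 22 immediate early targets and for 0 of the 14 family members above, beside 7.61% of all genes. Map2k1, which encodes the kinase MEK1, was at 133.9, 65.1, 70.6 and 72.6 CPM in PBS 1 to 4 and at 51.6, 56.7, 62.7 and 47.5 CPM in Ex4 1 to 4. All Ex4 libraries lay below all PBS libraries, and PBS 1 was far above the rest (log2 fold change -0.65, SE 0.21, edgeR adjusted p = 0.452). The other gene of this list without overlap was Rasa2, named after its values were seen, which encodes a RAS GTPase-activating protein (log2 fold change 0.24, edgeR adjusted p = 0.686). These are 2 of 25, beside 4.95% of all genes. Rps6ka1, which encodes an ERK-activated kinase of the RSK family, had a log2 fold change of -0.36, and Rasgrp1, the RAS activator downstream of the T cell receptor, of -0.45, with PBS 1 again the highest library in both.

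Among 19 genes listed under the p38 and JNK cascades 0 passed, with a median of 0.06. A place in this list does not mean that a gene acts on these cascades alone. Gadd45a, a stress-induced gene, was at 4.64 ± 2.60 and 8.18 ± 1.46 CPM. Mapkapk3, a kinase gene downstream of p38, was at 128.5 ± 23.1 and 101.6 ± 15.2 CPM, and Map3k8, which encodes TPL2, at 189.3 ± 46.0 and 241.3 ± 39.8 CPM. Their log2 fold changes were 0.82, -0.34 and 0.35.

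Of 22 genes listed as immediate early targets 0 passed. Fold changes were above 0 for 16 and below for 6, beside 47.1% of all genes below, with a median of 0.12. The list also held genes of factors that act on such targets, namely serum response factor and the ELK factors. Ier3, an early gene whose product binds ERK, was at 2.74, 2.28, 3.52 and 4.50 CPM with PBS and at 6.51, 6.25, 5.31 and 7.93 CPM with Ex4. Its groups did not overlap, as in 1 of the 22 and in 4.95% of all genes, and it did not pass, at a log2 fold change of 0.99 (SE 0.34, edgeR adjusted p = 0.477). Elk3, an ETS factor gene, was at 35.7 ± 6.16 and 50.1 ± 11.0 CPM (0.49) and Junb, an AP-1 subunit gene, at 1045 ± 367 and 1407 ± 389 CPM (0.43).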

How the data were processed

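For 8 libraries the authors deposited raw counts, as whole numbers for each gene symbol. Per the submitters' processing notes, STAR 2.7.9a, DESeq2 and mm10 were used, without role or order. The read counter, annotation and strand setting: not given in the sources used here. Per the labels' protocols, TRIzol RNA went into strand-specific TruSeq mRNA libraries, which were read as pairs of 200 bp. GENCODE places 547 exon bases of Dusp5 and 710 of Spry1 under genes on the opposite strand, so without the strand setting their counts are uncertain to that extent. Columns were matched to mice by description, with 0 left unused.

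The 2 groups were compared with edgeR 4.0.16 (R 4.3.3): filterByExpr, TMM, robust quasi-likelihood F test, Benjamini-Hochberg over 14691 genes, threshold 0.05. SEs and 95% intervals of fold changes came from the F statistic. They rest on the spread between mice, moderated over all genes tested, and not on the spread of each gene alone. DESeq2 1.42.0 and limma 3.58.1 (voom) were alternatives, with other scalings, filters, left-out libraries and covariates. Numbers in the column labels fall in a low run, replicates 1 and 2 of both groups, and a high run, replicates 3 and 4. This run was a covariate in an alternative fit, and what the numbers stand for is not given in the labels. Levels per kb used the union of GENCODE M21 exons, and log2 CPM a prior count of 2. The mean chi-square per gene between replicates was at least 20.6, so every library counted separately. Figures used Python 3.11.15 and matplotlib 3.10.9.

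The members and the lists were chosen with earlier results of these data known. Named genes were all 10 members, the 3 smallest p-values of each pathway list and the 2 genes most like each member in pattern, where their mean log2 CPM was 3 or more, leaving out antigen receptor segments, Rik clones and predicted genes. Not tested were Dusp9 and Dusp26, which were too low, and Spry3 is not analysed here. Some genes that this rule picks are not reported here. The labels do not say that replicate numbers pair the mice, and the main fit did not pair them. Deviations from group means correlated at 0.09, -0.03, -0.24 and 0.14 for numbers 1 to 4. Groups of 4 are too small for these values to exclude pairing.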

Additional observations from a re-analysis of the deposited data

Results flagged for a closer look

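For each member and group, the distance of the most extreme log2 CPM from its nearest neighbour was taken as a ratio of the range of the 4 libraries and set against Dixon's 95% limit. Of 20 such groups 2 passed, where chance gives about 1. Spry1 was low in PBS 1, at 0.75 against 2.37 in the next library (ratio 0.892). Dusp4 was high in Ex4 3, at 3.26 against 2.41 (ratio 0.838). PBS 1 also had the lowest T cell and IEL marker sum (53034 CPM). Ex4 3 had the highest T cell and IEL sum (84117 CPM) and the highest B and plasma cell sum (2201 CPM). It was also the deepest library, at 31843413 counts. The part of these traits in the Spry1 and Dusp4 values was not tested.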

How the results depend on the processing

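None of the 10 members passed under any of the 19 alternatives run for them (DESeq2 gave Spry1 and Spred2 no adjusted p) or at a threshold of 0.1, and the 4 pathway lists also kept 0 calls throughout. Of 190 alternative fold changes 184 kept their sign, and 7 genes kept it in all 19. The 6 that turned were Dusp2 without Ex4 3 (-0.0063) and without both PBS 2 and Ex4 3 (-0.066), Spred1 without Ex4 3 (-0.022), and Spry2 without PBS 2 (-0.11), without Ex4 4 (-0.13) and without both PBS 2 and Ex4 3 (-0.12). The cause was not tested. With 1 library left out, the log2 fold change of Dusp2 ran from -0.0063 to 0.20, that of Spry2 from -0.13 to 0.35 and that of Spred1 from -0.022 to 0.28. Members without overlap between groups, an alternative chosen after seeing the data, numbered 0 to 1 when each library was left out, and the 1 was Spry1 without PBS 1, Dusp10 without PBS 4 or Ex4 4, and Spred2 without Ex4 2. With the replicate number as a block 0 members passed, and the values of Dusp10, Spry1 and Spred2 were -0.42, -0.86 and 1.11. The value of Spry2 was 0.17 (SE 0.20) with that block and 0.11 (SE 0.24) with the run of label numbers as a term. Over all genes edgeR called 2, DESeq2 83 and limma-voom 1. Without PBS 2 edgeR called 14, and without any 1 of the other libraries it called 1. With so few calls over all genes, 0 calls is not particular to the members or the lists. The count over all genes at a threshold of 0.1 is not given here. Scaling moved the median of all genes only between 0.01 and 0.04. The lowest counts of Spry1 and Spred2, 33 and 13, were in PBS 1.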
